A study of Mus musculus with 6 samples.

Results

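Chemokines are small secreted proteins that guide the migration of blood cells, and chemokine receptors are the G protein-coupled receptors that read them. All genes whose symbol named a chemokine (Ccl, Cxcl, Cx3cl1, Xcl1) or a chemokine receptor (Ccr, Cxcr, Ackr, Cx3cr1, Xcr1, Ccrl2, Cmklr1) were taken, with the platelet chemokines Pf4 and Ppbp left out, which gave 58 of the 37620 gene rows: 34 ligands and 24 receptors. RNA sequencing had been run on granulocyte-macrophage progenitors (GMPs), the marrow cells that give rise to neutrophils and monocytes, sorted from C57BL/6 mice as cells negative for lineage antigens and Sca1 and positive for c-Kit and CD34, with a stain for Fc receptors. One group was labelled Bap1 knockout and came from Mx1-Cre Bap1 f/f mice (3 libraries), and the control group came from Bap1 f/f mice (3 libraries). All mice carried the floxed Bap1 alleles, had received polyI:polyC at 42 days and were 65 days old per the sample labels, whereas the series' design text gives a younger age for the injections. The Mx1 promoter responds to interferon in many cell types, not in GMPs alone, and only the knockout-labelled mice carried Cre, so effects of Cre and of Bap1 deletion cannot be told apart. The labels do not say whether the 3 libraries of a group came from separate animals, so p-values measure the spread between these libraries, which may be technical.

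In marrow, the chemokine Cxcl12 and its receptor Cxcr4 hold progenitors and immature granulocytes in place, whereas Cxcr2 draws mature neutrophils, and Ccr2 draws monocytes, into the blood. Inflammatory chemokines are made on demand by monocytes, macrophages, lymphocytes and stromal cells, and most inflammatory receptors bind several ligands. A separate group of atypical receptors binds chemokines without coupling to G proteins and removes or transports them.

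Each library held 19.5 to 25.9 M reads in genes, and values are given as normalized counts, the read counts of a gene divided by the authors' size factor of the library. A floor of 3 reads corresponded to 3.12 to 3.43 normalized counts in knockout-labelled libraries and to 2.67 to 2.87 in control libraries, and floors and counting intervals cover counting error only. Bap1 itself averaged 2983 ± 319 normalized counts in knockout-labelled libraries, against 1139 ± 181 in control libraries (SD, n = 3 each), with a log2 fold change of 1.39 ± 0.14 (SE) and an adjusted p of 6.07e-05 by limma with Benjamini-Hochberg adjustment. That direction goes against the label. A count over the whole gene does not check the deleted exons, so the libraries are called knockout-labelled throughout. GMP and primary granule genes (Mpo, Elane and 6 others) were read in every library, with sums of 1090000 to 1584000 normalized counts in knockout-labelled libraries and 862500 to 935000 in control libraries.

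Of the 58 genes, 43 had at least 1 read in some library and 15 had none. The filter, a mean of at least 10 normalized counts over the 6 libraries, passed 22 genes, which were tested with limma on log2(normalized count + 1) with p-values adjusted over all 14391 genes tested. Of these 22, 1 was higher in knockout-labelled libraries, 14 were lower and 7 did not pass the adjusted p of 0.05, where 11.8% of all tested genes were higher and 15.0% were lower. The median log2 fold change of the 22 was -1.80, against 0.005 over all tested genes. In 15 of the 22 every knockout-labelled library lay below every control library, and in 1 every one lay above, against 22.5% and 20.4% of all tested genes. The filter shapes these counts, because 7 of the 14 lower genes passed it only through the control group, among them Ccr3, Cxcr3, Ccr9, Cxcl12, Cxcl10 and Xcl1. Among the 14 genes with a mean of at least 10 in both groups, 1 was higher, 7 were lower and 6 were not called, with a median log2 fold change of -0.98.

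**Figure D1:**
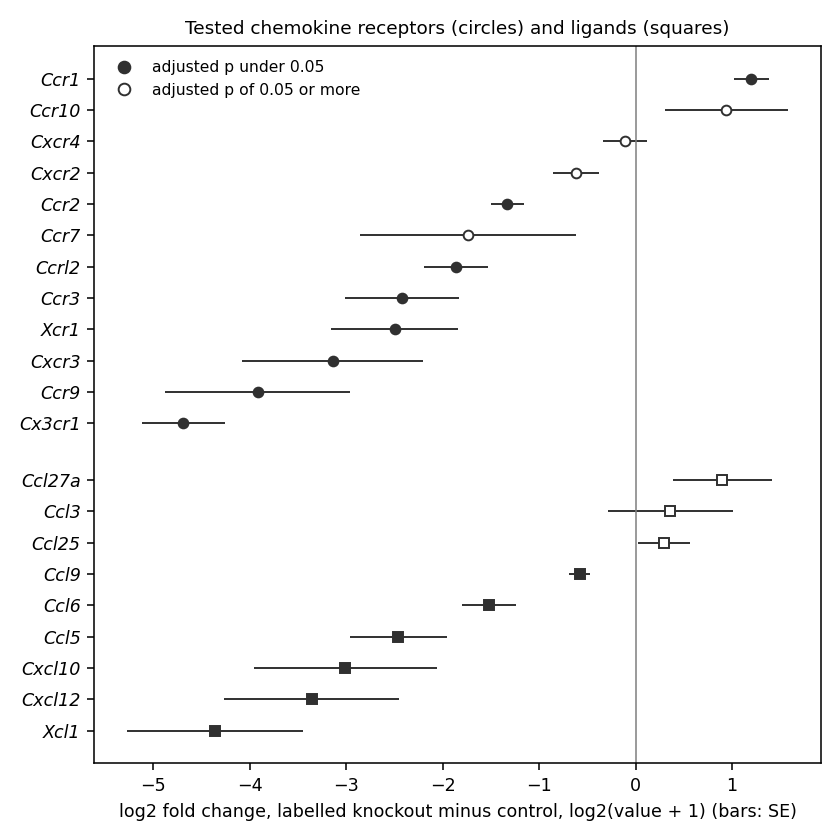
Log2 fold change (knockout-labelled minus control, log2(value + 1) scale) of 12 tested receptors (circles) and 9 tested ligands (squares), with bars of 1 SE; filled symbols have an adjusted p under 0.05. Ccr1 at 1.20 is the only filled symbol right of 0, and the filled symbols left of 0 run from Ccl9 at -0.58 to Cx3cr1 at -4.69.

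Summed over all 58 genes, the libraries held 11010 ± 1176 normalized counts in the knockout-labelled group and 17950 ± 269 in the control group (SD, n = 3 each). Ligands contributed 8219 ± 794 and receptors 2794 ± 520 normalized counts in knockout-labelled libraries, against 12620 ± 356 and 5332 ± 324 in control libraries. The knockout-labelled sums were lower in all 3 libraries for both kinds of gene, but single genes weigh heavily in them. Ccl9 held 93.1 to 95.2% of ligand reads in knockout-labelled and 90.2 to 92.4% in control libraries. Ccr2 held 45.1 to 53.4% of receptor reads in knockout-labelled and 63.5 to 65.6% in control libraries. A single knockout-labelled library held reads of 27 to 28 of the 58 genes, against 34 to 37 in a control library. Over all genes, 17090 to 17509 had a read in a knockout-labelled library, against 17267 to 17485 in a control library. Depth differed as well, with 19.5 to 24.1 M reads in genes in knockout-labelled and 24.1 to 25.9 M in control libraries.

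Among the signalling receptors, the neighbours Ccr1 and Ccr2 moved in opposite directions. Ccr2 is the receptor for the monocyte attractants Ccl2, Ccl7 and Ccl12 and is carried by monocytes and their progenitors. Normalized counts were 1801, 1336 and 1071 in knockout-labelled libraries, against 3538, 3582 and 3223 in control libraries. The groups were apart, and the highest knockout-labelled library lay well below the lowest control library. Ccr2 was 2.51-fold lower (log2 fold change -1.33 ± 0.17 SE, limma adjusted p = 0.000243). In bulk RNA, fewer cells of a type and less RNA per cell cannot be told apart. Ccr1, a receptor for Ccl3, Ccl5, Ccl6 and Ccl9 on monocytes and neutrophils, had 1003, 713 and 719 normalized counts in knockout-labelled libraries, against 355, 355 and 333 in control libraries. All 3 knockout-labelled libraries stood above the control libraries, which lay close together. Ccr1 was 2.30-fold higher (log2 fold change 1.20 ± 0.18 SE, limma adjusted p = 0.000554).

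Both genes lie near each other on chromosome 9 with Ccr3 between them in the annotation order, and their upstream sequences are shown because they changed in opposite directions. Both are the 250 bases before the annotated start, 5′ to 3′ on the strand of the gene, from the RefSeq promoter table of GRCm38.p6: chr9:123968693-123968942 on the minus strand for Ccr1 and chr9:124101933-124102182 on the plus strand for Ccr2. Capitals would mark GGAAGT or its reverse complement ACTTCC, called the ETS letters here. They are a form of the sites of ETS factors such as PU.1, a regulator of myeloid genes. Neither sequence holds these letters, though both hold the shorter core GGAA.
Ccr1: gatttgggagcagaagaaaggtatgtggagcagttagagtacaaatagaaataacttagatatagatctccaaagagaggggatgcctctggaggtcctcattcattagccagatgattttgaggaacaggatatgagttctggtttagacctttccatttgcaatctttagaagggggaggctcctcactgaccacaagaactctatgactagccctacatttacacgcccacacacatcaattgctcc
Ccr2: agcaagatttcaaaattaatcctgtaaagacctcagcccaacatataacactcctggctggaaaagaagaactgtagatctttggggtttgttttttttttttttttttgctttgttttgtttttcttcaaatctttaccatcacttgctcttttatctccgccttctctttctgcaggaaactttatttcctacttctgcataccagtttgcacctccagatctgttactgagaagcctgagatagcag
Aligned end to end with gaps left out, the pair shared 63.8% of 207 aligned positions, and the longest run in common was 8 bases. This share lies within the 58.7 to 66.8% of these windows paired with those of Ccl9 or Ccl6 on chromosome 11. The longest runs of those pairs were 7 to 9 bases. Absence of these letters says only that they are not in this window.

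The order of the receptor levels differed between the groups. Per kilobase of the longest annotated transcript, Ccr1 averaged 287 ± 58.4 and Ccr2 245 ± 64.5 normalized counts in knockout-labelled libraries, and their ranges over libraries overlapped. In control libraries Ccr2 stood alone at the top with 602 ± 34.2 normalized counts per kilobase. It was followed by Cxcr4, Ccr1, Cx3cr1 and Cxcr2 at means of 130, 123, 115 and 100, each overlapping the next. The ratio of Ccr1 to Ccr2 per kilobase was 1.08 to 1.36 in the 3 knockout-labelled libraries and 0.20 to 0.209 in the 3 control libraries. The read ratio was 5.80-fold higher (log2 difference 2.54), and an exact 2-sided permutation test over the 6 libraries gave p = 0.1, the smallest that 3 against 3 can give. This ratio was chosen after the values of both genes had been seen.

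**Figure D2:**
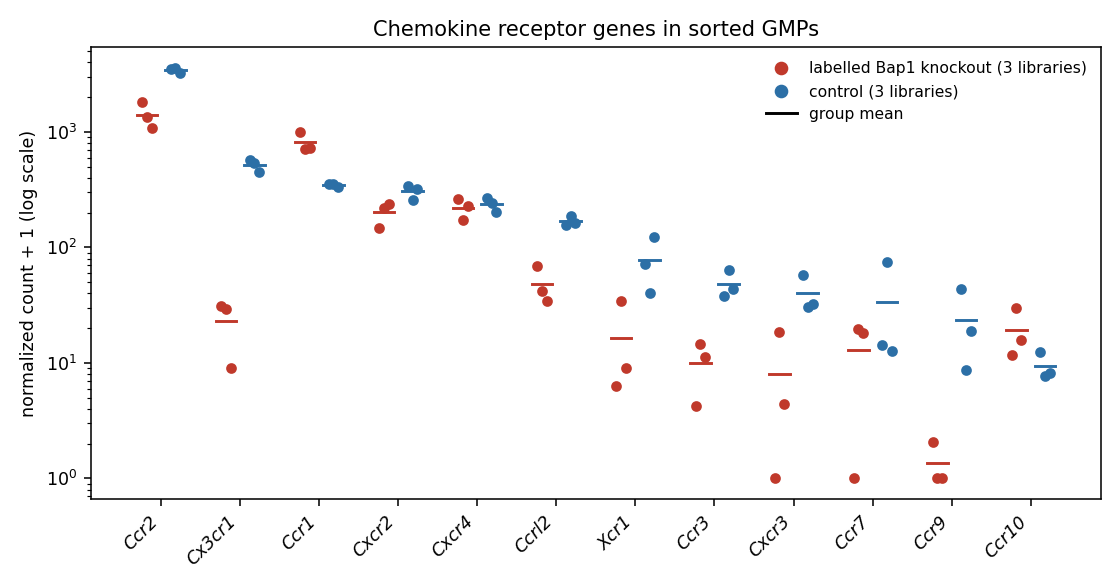
Normalized counts plus 1 (log scale) of 12 tested receptor genes in each knockout-labelled library (left of each pair) and each control library, with lines at the group means. Ccr1 stands higher and Ccr2 lower in all 3 knockout-labelled libraries, and Cx3cr1 drops to 7.99 to 29.9 normalized counts there, against 450 to 571 in control libraries.

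Cx3cr1, the receptor for the membrane-bound chemokine fractalkine (Cx3cl1) and a gene of monocytes, macrophages and dendritic cell progenitors, fell further than any other tested receptor or ligand that was read in all 6 libraries. It had 29.9, 28.1 and 7.99 normalized counts in knockout-labelled libraries, against 571, 535 and 450 in control libraries. The control libraries kept it at the level of Ccr1 per kilobase, and the knockout-labelled libraries held 62 reads of it in all. The fold change was 25.8 (log2 fold change -4.69 ± 0.43 SE, limma adjusted p = 2.88e-05). An exon of Gm33858 overlaps Cx3cr1 on the opposite strand, and the sources used here do not state whether reads were counted by strand. Of 15 tested monocyte and macrophage markers 13 were lower in the same libraries, beside 15.0% of all tested genes. The part of such cells in the lower Ccr2 and Cx3cr1 was not tested. The ligand Cx3cl1 had 1 read in knockout-labelled and 3 reads in control libraries.

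Ccr3, which lies between Ccr1 and Ccr2 in the annotation order, fell as well. This eotaxin receptor of eosinophils and basophils had 3.20, 13.5 and 10.3 normalized counts in knockout-labelled libraries, against 37.3, 62.1 and 42.8 in control libraries. All knockout-labelled libraries were lower, with a log2 fold change of -2.42 ± 0.59 (SE) and a limma adjusted p of 0.0109, which became 0.0592 without control library 2. Reads with several alignments went to no gene, so receptors with close copies, Ccr2 among them, may be undercounted.

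Other receptors of dendritic cells and lymphocytes were read at low levels. Xcr1, which marks cross-presenting dendritic cells, had 5.33, 33.3 and 7.99 normalized counts in knockout-labelled libraries, against 71.1, 39.2 and 121 in control libraries. The highest knockout-labelled library came close to the lowest control library (log2 fold change -2.50 ± 0.66 SE, limma adjusted p = 0.0161). The call was lost without control library 3, at an adjusted p of 0.0856, and the log2 fold change was -3.23 without knockout-labelled library 2. Cxcr3, the receptor for the interferon-induced chemokines Cxcl9, Cxcl10 and Cxcl11, had 0, 17.7 and 3.43 normalized counts in knockout-labelled libraries, against 56.9, 29.6 and 31.2 in control libraries. It was lower in every knockout-labelled library, yet these spread from no read to 17.7 (log2 fold change -3.14 ± 0.94 SE, limma adjusted p = 0.0279). Its call was lost in the edgeR test on the recovered reads, with an adjusted p of 0.066, and when any library other than knockout-labelled library 2 was left out, with adjusted p-values of 0.0541 to 0.0955. The log2 fold change of Cxcr3 was -2.08 without knockout-labelled library 1 and -4.19 without knockout-labelled library 2.

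Ccr9, the receptor for Ccl25 on thymus-seeding and plasmacytoid dendritic cells, had 1.07, 0 and 0 normalized counts in knockout-labelled libraries, against 42.7, 7.64 and 17.8 in control libraries. It was called lower (limma adjusted p = 0.0114, but 0.079 without control library 1). Only 1 read stood in the knockout-labelled libraries against 76 in control libraries, a 64.0-fold lower level with an exact 95% counting interval of 11.1 to 2560, so its fitted fold change depends on the pseudocount. Ccr9 shares exons with Gm17200 on the same strand and with Slc6a20a on the other, and its value is uncertain for that reason.

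The receptors that set the release of granulocytes from marrow were not called in either direction. Cxcr4, the Cxcl12 receptor, had 260, 172 and 227 normalized counts in knockout-labelled libraries, against 265, 242 and 200 in control libraries. The groups overlapped almost fully, and the log2 fold change of -0.11 ± 0.23 (SE) had a limma adjusted p of 0.759. Its sign turned in 3 of the alternative fits. Cxcr2, the receptor for the neutrophil attractants Cxcl1, Cxcl2 and Cxcl5, had 147, 218 and 239 normalized counts in knockout-labelled libraries, against 339, 258 and 320 in control libraries. The groups did not overlap, but the difference of -0.62 ± 0.24 (SE, log2) missed the threshold (limma adjusted p = 0.0706) and passed it without knockout-labelled library 3, at 0.0478.

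Ccr7, which leads dendritic cells and T cells to lymph nodes, averaged 12.0 ± 10.4 normalized counts in knockout-labelled libraries and 32.8 ± 35.3 in control libraries (SD, n = 3 each). Control library 2 carried most of the control level, and Ccr7 was not called (log2 fold change -1.74 ± 1.12 SE, limma adjusted p = 0.277). Ccr10, the receptor for the skin chemokine Ccl27, averaged 18.2 ± 9.69 and 8.46 ± 2.69 normalized counts in knockout-labelled and control libraries and overlapped between groups (limma adjusted p = 0.302). It was the one tested gene to pass the filter through the knockout-labelled group alone. Cxcr6, Cxcr5 and Cmklr1 were read below the filter. Cxcr5, the B cell follicle receptor, had no read in knockout-labelled libraries, against 14.2, 9.56 and 0.891 normalized counts in control libraries, at least 2.53-fold lower with a floor of 3 reads per library. The chemerin receptor Cmklr1 was read the other way round, with 0, 8.33 and 6.85 normalized counts in knockout-labelled libraries and no read in control libraries. Cxcr6 ran from 0 to 23.5 normalized counts in knockout-labelled and from 0.891 to 20.4 in control libraries. Ccr4, Ccr6, Ccr8 and Cxcr1 had no read in any library.

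Along chromosome 9, the 14 receptor genes of the set include 8 that were tested, and 1 of these was higher and 7 were lower. Over all tested genes, 11.8% were higher and 15.0% were lower. Some of the 7, Ccr3 and Ccr9 among them, passed the filter only through the control group. In annotation order Ccr9, Cxcr6, Xcr1, Ccr1, Ccr3 and Ccr2 follow each other in the main receptor cluster. Ccr1 was higher there while Xcr1 before it and Ccr3 after it were lower. Cxcr6 was under the filter.

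**Figure D3:**
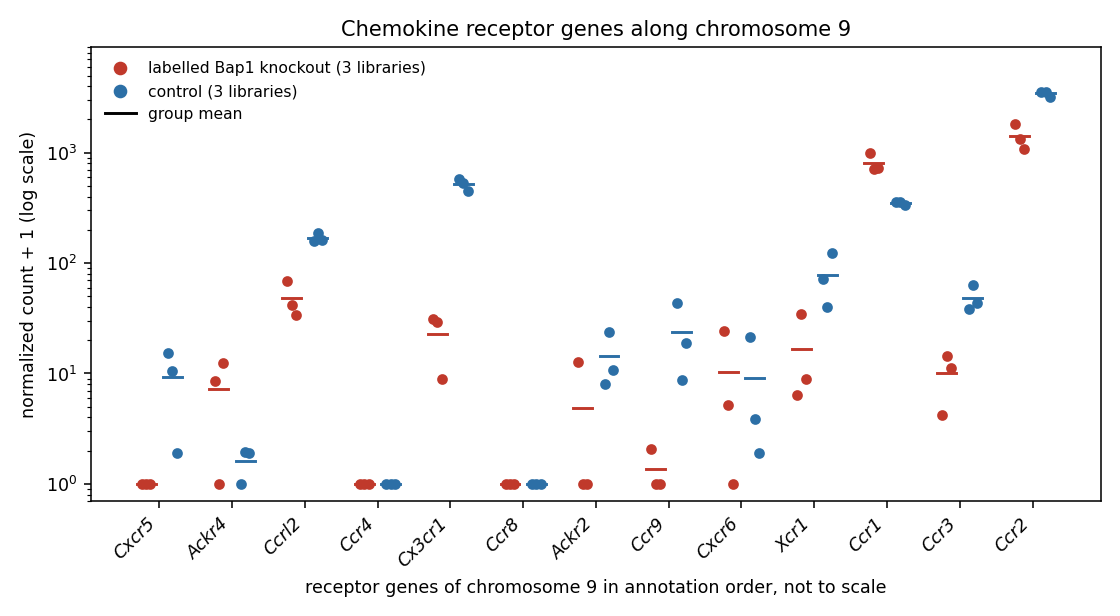
Normalized counts plus 1 (log scale) of 13 receptor genes of chromosome 9 in annotation order, in each knockout-labelled library (left of each pair) and each control library, with lines at the group means. Ccr1 is the one called gene that is higher in knockout-labelled libraries, and it lies between Xcr1 and Ccr3, which are lower.

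Of the 5 atypical receptors, 1 passed the filter. Ccrl2, which holds the attractant chemerin on the cell surface without signalling, had 68.3, 40.6 and 33.1 normalized counts in knockout-labelled libraries, against 156, 185 and 160 in control libraries. It was 3.64-fold lower with no overlap between groups (log2 fold change -1.86 ± 0.33 SE, limma adjusted p = 0.00177). Ccrl2 and Cmklr1 bind the same ligand, and Cmklr1 was read in knockout-labelled libraries only, with 14 reads in all. The scavenger Ackr2 had 11 reads in knockout-labelled and 43 in control libraries. Ackr4 had 17 reads in knockout-labelled and 2 in control libraries, and Ackr1 had 5 in knockout-labelled and 12 in control libraries. Ackr3 had no read.

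The ligand RNA of these cells was mostly that of Ccl9. Together with its neighbour Ccl6 it held 96.6 to 97.2% of ligand reads in knockout-labelled and 94.9 to 96.5% in control libraries. Ccl9 alone held 93.1 to 95.2% and 90.2 to 92.4%. Mouse myeloid cells make both chemokines, which act on Ccr1. Ccl9 had 8410, 6849 and 7979 normalized counts in knockout-labelled libraries, against 11010, 11830 and 11710 in control libraries. Every knockout-labelled library was lower, by a moderate amount: 1.49-fold (log2 fold change -0.58 ± 0.11 SE, limma adjusted p = 0.0035). Under the 17 alternatives the log2 fold change of Ccl9 ran from -0.64 to -0.34, and the call was kept. Ccl6 had 260, 258 and 119 normalized counts in knockout-labelled libraries, against 573, 525 and 636 in control libraries. It was 2.87-fold lower with the groups apart (log2 fold change -1.52 ± 0.28 SE, limma adjusted p = 0.00229). Per kilobase, Ccl9 averaged 2580 ± 268 and Ccl6 148 ± 56.3 normalized counts in knockout-labelled libraries, against 3830 ± 147 and 401 ± 38.9 in control libraries. Reads that fit both genes would have gone to neither, and the likeness of their transcripts was not measured. Their receptor, Ccr1, was higher in the libraries in which the ligands were lower.

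The upstream sequences of this pair are shown because the genes are neighbours on chromosome 11 that fell together. They are again the 250 bases before the start from the RefSeq table of GRCm38.p6, 5′ to 3′ on the gene's strand, chr11:83578637-83578886 for Ccl9 and chr11:83593088-83593337 for Ccl6, both on the minus strand. Capitals mark the ETS letters, here as ACTTCC, which each window holds once.
Ccl9: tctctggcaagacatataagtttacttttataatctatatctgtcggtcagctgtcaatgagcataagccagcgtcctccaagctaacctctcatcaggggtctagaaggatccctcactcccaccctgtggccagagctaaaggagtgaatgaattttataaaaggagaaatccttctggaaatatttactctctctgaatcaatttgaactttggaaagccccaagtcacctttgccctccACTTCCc
Ccl6: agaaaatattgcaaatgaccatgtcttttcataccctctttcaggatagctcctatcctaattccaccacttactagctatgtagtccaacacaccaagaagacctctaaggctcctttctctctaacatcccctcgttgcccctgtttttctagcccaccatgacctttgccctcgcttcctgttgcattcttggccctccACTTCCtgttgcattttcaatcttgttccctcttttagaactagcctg
The ETS letters lie in the longest run the pair shares, 13 bases. With gaps left out, 63.1% of 214 aligned positions were identical. That value lies within the 58.7 to 66.8% of these windows paired with those of Ccr1 or Ccr2. Across the RefSeq table, 43 of the 58 genes matched with 49 windows of 300 bases (250 before and 50 after the start). Searched on both strands, with matches of different motifs free to share bases, the ETS core stood in 36.7% of the 49 windows and in 23.8% of all 32851 windows. The C/EBP letters TTGCNNAA, of a family that drives granulocyte genes, stood in 8.16% of the 49 windows and in 10.8% of all windows. The NF-kB letters, GGGA and TTTCC with 1 base of any kind between them, stood in 8.16% of the 49 windows, those of Cxcl1, Cxcl2, Cxcl3 and Ccr3, and in 0.411% of all windows. Cxcl1 and Cxcl3 had no read in any library and Cxcl2 had 2 reads. These matches describe letters and not bound sites.

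**Figure D4:**
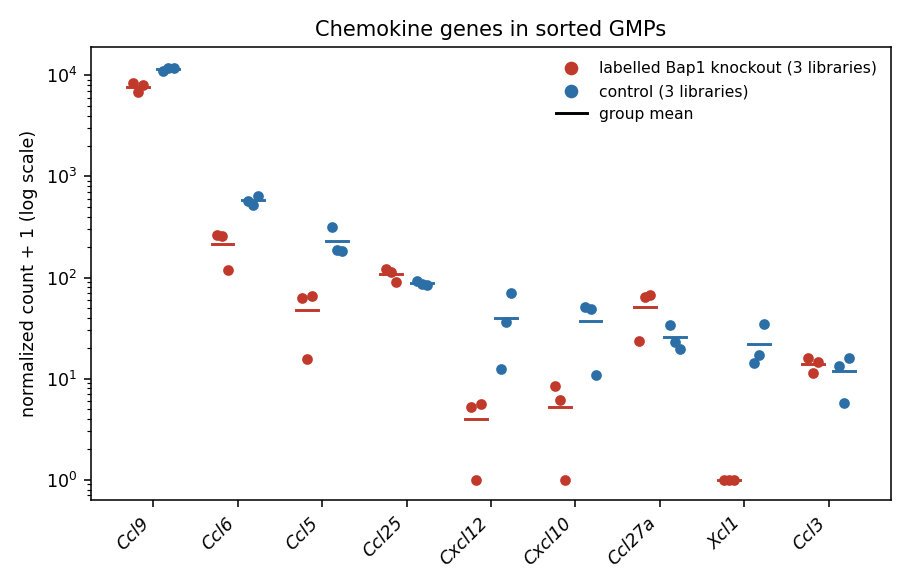
Normalized counts plus 1 (log scale) of the 9 tested chemokine genes in each knockout-labelled library (left of each pair) and each control library, with lines at the group means. Ccl9, Ccl6 and Ccl5 are lower in all knockout-labelled libraries, and Xcl1 has no read in them.

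Ccl5, an attractant of T cells, eosinophils and basophils that binds Ccr1 and Ccr3, had 61.9, 14.6 and 65.1 normalized counts in knockout-labelled libraries, against 314, 186 and 180 in control libraries. All knockout-labelled libraries lay below, and the spread within them was wide (5.48-fold lower, log2 fold change -2.46 ± 0.50 SE, limma adjusted p = 0.00433). Without knockout-labelled library 2 the log2 fold change was -1.77. Ccl3 and Ccl4, inflammatory macrophage products encoded beside Ccl6, were not called. Ccl3 averaged 13.02 ± 2.34 normalized counts in knockout-labelled libraries and 10.8 ± 5.38 in control libraries (SD, n = 3 each), with an adjusted p of 0.718 by limma, and its sign turned without control library 2. Ccl4 was under the filter, with 2.08 to 6.85 normalized counts in knockout-labelled and 3.57 to 22.9 in control libraries.

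Cxcl12, the retention signal that stromal cells make in marrow, had 4.27, 0 and 4.57 normalized counts in knockout-labelled libraries, against 11.6, 35.4 and 68.6 in control libraries. The groups did not overlap, and control libraries spread widely (log2 fold change -3.36 ± 0.91 SE, limma adjusted p = 0.0177). The call was lost without control library 2 or 3, with adjusted p-values of 0.0699 and 0.0979, and the log2 fold change was -2.55 without knockout-labelled library 2 and -4.03 without control library 1. Of the 9 stromal and endothelial markers, 4 were tested and 2 were lower, with sums of 904 to 1463 normalized counts in knockout-labelled libraries and 1312 to 1706 in control libraries. Pecam1, not called, made up most of these sums, with 855.5 to 1400 in knockout-labelled and 1007 to 1355 in control libraries. The lower ones were Emcn, which had no read in knockout-labelled libraries, against 31.1, 36.3 and 47.2 normalized counts in control libraries, and Spp1, which averaged 16.4 in knockout-labelled and 293 in control libraries. Kitl, under the filter, had no read in knockout-labelled libraries, against 8.88, 30.6 and 0 normalized counts in control libraries. Alpl went the other way, with 10.7, 11.45 and 55.95 in knockout-labelled and 0.889, 1.91 and 7.13 in control libraries. It was not called (limma adjusted p = 0.0565). Col1a1 and Lepr had reads in knockout-labelled libraries only, at most 6.25 and 1.14 normalized counts, and Cdh5 had no read in any library. The part of such cells in the lower Cxcl12 was not tested.

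Cxcl10 and Xcl1 were lower in knockout-labelled libraries as well. Cxcl10, an interferon-induced ligand of Cxcr3, had 7.47, 5.21 and 0 normalized counts in knockout-labelled libraries, against 50.6, 47.8 and 9.81 in control libraries. Control library 3 lay near the knockout-labelled libraries (log2 fold change -3.01 ± 0.95 SE, limma adjusted p = 0.0354). The call was lost without knockout-labelled library 2 or 3 or control library 1 or 2, at adjusted p-values of 0.0528 to 0.138, and the log2 fold change was -2.05 without knockout-labelled library 3 and -3.74 without control library 3. Exons of Art3 overlap Cxcl10 on the opposite strand. Xcl1, the ligand of Xcr1 made by natural killer and T cells, had no read in knockout-labelled libraries, against 13.3, 16.2 and 33.9 normalized counts in control libraries. It was at least 6.51-fold lower with a floor of 3 reads per library (limma adjusted p = 0.00484), and exons of Gm20743 overlap it on the opposite strand.

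Cxcl9, the partner of Cxcl10, missed the filter with a mean of 9.07 normalized counts. It had no read in knockout-labelled libraries, against 31.1, 1.91 and 21.4 normalized counts in control libraries, at least 5.58-fold lower with that floor. The eosinophil attractant Ccl24 had none either, against 16.0, 1.91 and 9.81 normalized counts in control libraries, at least 2.84-fold lower. With every gene of at least 1 read in the fit, Cxcl9, Ccl24 and the receptor Cxcr5 were called lower as well, with limma adjusted p-values of 0.0153, 0.0175 and 0.038.

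Ccl25, made mainly in gut and thymus, and Ccl27a, made in skin, were read in every library and were not called. Ccl25 averaged 107 ± 15.9 normalized counts in knockout-labelled libraries and 86.5 ± 3.64 in control libraries (SD, n = 3 each; limma adjusted p = 0.46). Ccl27a averaged 50.4 ± 24.3 and 24.5 ± 7.41 normalized counts in knockout-labelled and control libraries, with a limma adjusted p of 0.213 that became 0.0451 without knockout-labelled library 1. Both overlap exons of genes on the opposite strand, Elavl1 for Ccl25 and Il11ra1 for Ccl27a, and Ccl27a has close copies, so these values are uncertain.

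The remaining 12 ligands with reads were under the filter. Cxcl16, Cxcl5 and Ccl17 had 22, 21 and 27 reads in knockout-labelled libraries, against 26, 23 and 13 in control libraries. The Ccr2 ligands Ccl2 and Ccl12 had 4 reads each in knockout-labelled libraries, against 19 and 4 in control libraries, and Ccl7 had none. Ccl8 had 7 reads in knockout-labelled and 8 in control libraries. Cxcl17, Ccl22, Cxcl11 and Ccl1 had no read in knockout-labelled libraries, against 15, 10, 6 and 4 reads in control libraries, and Cxcl2 and Cx3cl1 had at most 3 reads in either group. Ligands with no read in any library were Ccl7, Ccl11, Ccl19, Ccl20, Ccl26, Cxcl1, Cxcl3, Cxcl13, Cxcl14 and Cxcl15. Of the 24 ligands with a read, 1 was read in knockout-labelled libraries only (4.17%) and 7 in control libraries only (29.2%), against 7.05% and 7.15% of the 20738 genes with a read. Among the 19 receptors with a read, 1 was read in knockout-labelled libraries only and 1 in control libraries only.

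Marker genes of other cell types were read in the same libraries, and their counts stand beside 11.8% higher and 15.0% lower over all tested genes. Beside the 13 lower monocyte and macrophage markers 1 was higher, and the list summed to 57720 to 120200 normalized counts in knockout-labelled libraries and 116900 to 135000 in control libraries. Much of these sums was Ly6c2, not called, with 46720 to 98230 in knockout-labelled and 57140 to 66620 in control libraries. Csf1r, the receptor that monocytes need to survive, averaged 464 ± 245 normalized counts in knockout-labelled and 2270 ± 153 in control libraries (SD, n = 3 each). Dendritic cell markers were lower in 8 of 12 tested, with sums of 2162 to 5420 normalized counts in knockout-labelled and 9325 to 25610 in control libraries. Irf4, under the filter, had no read in knockout-labelled libraries, and 2 of the 3 control libraries had none either. Basophil, mast cell and eosinophil markers were lower in 6 and higher in 1 of 10 tested, with sums of 41820 to 55210 and 91940 to 97430 normalized counts in knockout-labelled and control libraries. All 7 tested B lymphoid markers were lower, 3 of the 9 listed had no read in knockout-labelled libraries, and the list had sums of 1103 to 1426 and 2201 to 2624 normalized counts in knockout-labelled and control libraries. Most of these sums was Cd79b, with 996 to 1304 in knockout-labelled and 1656 to 1952 in control libraries. Of 5 tested T and NK markers, 4 were lower and 1, the granule gene Nkg7, was higher. Nkg7 alone had 36320 to 55950 normalized counts in knockout-labelled and 27920 to 29760 in control libraries, nearly all of the list's sums of 36470 to 56040 and 28450 to 30610. The lower Ncr1 and Gzmb averaged 0.347 and 64.2 normalized counts in knockout-labelled libraries and 93.7 and 345 in control libraries.

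The remaining marker lists changed in both directions. GMP and primary granule genes were higher in 5 and lower in 0 of 8 tested, with sums of 1090000 to 1584000 normalized counts in knockout-labelled and 862500 to 935000 in control libraries. Among them the neutrophil elastase gene Elane averaged 444300 ± 134600 in knockout-labelled and 268400 ± 12110 in control libraries (SD, n = 3 each; limma adjusted p = 0.0263), and Mpo, for myeloperoxidase, was not called (limma adjusted p = 0.251). Erythroid genes were higher in 4 and lower in 0 of 9 tested, with sums of 7985 to 18080 in knockout-labelled and 6466 to 10150 in control libraries. The globin gene Hbb-bs had 732, 882 and 1690 normalized counts in knockout-labelled libraries, against 98.6, 118.5 and 167 in control libraries (limma adjusted p = 4.67e-05), and Rhag and Epor were 4.68-fold and 4.05-fold higher. Megakaryocyte genes were higher in 0 and lower in 3 of 8 tested, with sums of 1569 to 3510 in knockout-labelled and 2315 to 3799 in control libraries, and the platelet chemokine Pf4 was 7.80-fold lower. Neutrophil maturation genes were higher in 1 and lower in 0 of 11 tested, and their sum of 112200 to 313700 normalized counts in knockout-labelled libraries spanned that of control libraries, 140600 to 191800. Of 5 genes of the sort gate, 1 was higher and 2 were lower, with sums of 14690 to 16960 and 27830 to 29680 normalized counts in knockout-labelled and control libraries. The lower Cd34 and Fcgr3 averaged 3963 and 7836 in knockout-labelled libraries and 11500 and 13250 in control libraries. The higher Kit averaged 1524 in knockout-labelled and 1096 in control libraries, and Ly6a and Fcgr2b were not called. The part of the cell types of all these lists in the lower Xcr1, Ccr3, Ccl6 and Ccl5 was not tested.

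Of the genes of the signalling machinery behind the receptors, some were called in each direction, beside 11.8% higher and 15.0% lower over all tested genes. Of 17 tested G protein subunit genes, 3 were lower and 0 were higher. Gng2, a gamma subunit, averaged 32.3 ± 11.0 normalized counts in knockout-labelled libraries and 670 ± 132 in control libraries (SD, n = 3 each; log2 fold change -4.36 ± 0.29 SE, limma adjusted p = 4.14e-06). The beta subunit Gnb4 averaged 118 ± 36.6 in knockout-labelled and 471 ± 90.0 in control libraries (limma adjusted p = 0.000326), and Gng12 averaged 5472 in knockout-labelled and 8261 in control libraries. Gng2 and Gnb4 kept their calls under every alternative, and Gng12 lost its call without control library 2 or 3.

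Of 15 tested genes that end receptor signalling, 4 were higher and 3 were lower, beside 11.8% and 15.0% of all tested genes. The arrestin Arrb2, which uncouples active receptors, averaged 1681 ± 166 normalized counts in knockout-labelled libraries and 906 ± 110 in control libraries (SD, n = 3 each; limma adjusted p = 0.000939). The receptor kinases Grk2 and Grk6 averaged 2647 and 645 in knockout-labelled libraries and 1689 and 404.5 in control libraries, and Rgs12 averaged 447.5 in knockout-labelled and 252 in control libraries. Rgs10, Rgs2 and Rgs1, which speed the shut-off of G proteins, were the lower ones. Rgs10 averaged 791 ± 88.1 in knockout-labelled and 2098 ± 148 in control libraries (limma adjusted p = 3.7e-05). Rgs2 and Rgs1 averaged 977 and 69.0 in knockout-labelled libraries and 1739 and 170 in control libraries. Without control library 3, 2 of these genes were called higher instead of 4.

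Downstream effectors, kinases and GTPases of cell movement, were higher in 3 of 28 tested and lower in 4, shares close to the 11.8% and 15.0% of all tested genes. The focal adhesion protein Pxn averaged 1657 normalized counts in knockout-labelled and 1079 in control libraries, and the integrin activator Fermt3 6673 in knockout-labelled and 4709 in control libraries. The lower genes included Lyn and Cdc42, at 1862 and 21390 in knockout-labelled libraries and 2598 and 28520 in control libraries, and Pik3r6, at 192 in knockout-labelled and 375 in control libraries. Pxn kept its call under every alternative. Fermt3, whose groups overlapped, lost its call in 9 of 17 alternatives, with adjusted p-values of 0.0564 with the replicate block and 0.0757 with the GC and length correction. Lyn, Cdc42 and Pik3r6 lost theirs in 4, 8 and 6 of the 17. The number called lower was 0 without control library 2, 1 without control library 1, 1 without control library 3 and 2 without knockout-labelled library 3. The median log2 fold changes of the G protein, desensitization and effector groups were -0.08, -0.07 and -0.05.

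Chemoattractant receptors outside the chemokine family changed in both directions, with 5 higher and 7 lower of 15 tested, beside 11.8% and 15.0% of all tested genes. The leukotriene B4 receptor Ltb4r1 averaged 4434 ± 1577 normalized counts in knockout-labelled libraries and 1777 ± 76.0 in control libraries (SD, n = 3 each; limma adjusted p = 0.000825). The sphingosine phosphate receptor S1pr4 averaged 443.5 in knockout-labelled and 200 in control libraries. Ptgdr2, the formyl peptide receptor Fpr2 and the C5a receptor C5ar2 averaged 66.5, 293 and 80.7 in knockout-labelled libraries and 21.8, 66.3 and 28.0 in control libraries. These last 3 calls depended on single libraries: 2 receptors of this group were called higher without knockout-labelled library 1 or control library 2, and 3 without knockout-labelled library 2 or control library 3. The leukotriene receptor Cysltr1 averaged 4.61 ± 5.31 in knockout-labelled and 155 ± 54.8 in control libraries (limma adjusted p = 0.000546). S1pr1, which guides the exit of lymphocytes into blood, averaged 2.59 ± 2.34 in knockout-labelled and 60.3 ± 15.4 in control libraries (limma adjusted p = 0.0014). Gpr183, Gpr35 and S1pr3 averaged 104, 10.7 and 458 in knockout-labelled libraries and 318, 77.6 and 785.5 in control libraries.

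Enzymes that sulfate or cleave chemokines and their receptors were higher in 2 and lower in 2 of 10 tested, beside 11.8% and 15.0% of all tested genes. Dpp4, the peptidase that inactivates Cxcl12, averaged 219 ± 147 normalized counts in knockout-labelled libraries and 679 ± 53.2 in control libraries (SD, n = 3 each; limma adjusted p = 0.00318), and the sheddase Adam17 averaged 553 in knockout-labelled and 782 in control libraries. The granule protease Ctsg averaged 39010 ± 3032 in knockout-labelled and 24050 ± 2222 in control libraries (limma adjusted p = 0.00153), and Mmp14 averaged 68.8 in knockout-labelled and 14.5 in control libraries. The numbers called higher and lower were both 1 without knockout-labelled library 3, control library 2 or control library 3, and the number lower was also 1 without control library 1. Dpp4 and Ctsg kept their calls under every alternative.

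Inducers of chemokine transcription and their feedback genes were higher in 3 and lower in 4 of 19 tested, beside 11.8% and 15.0% of all tested genes. The higher ones were Nfkb1, Rel and Nfkbia of the NF-kB pathway. They averaged 3899, 137 and 4652 normalized counts in knockout-labelled libraries and 2576, 68.7 and 3378 in control libraries. Other genes of that pathway in the list, named after their values were seen, were not called. Rela, Relb, Nfkb2 and Nfkbie had log2 fold changes of 0.2, 0.7, -0.04 and 0.14, and Tnfaip3 and Nfkbiz of -1.11 and -0.66. The interferon pathway genes Irf1 and Irf7, and the antagonist Il1rn, were among the lower ones and averaged 1055, 68.6 and 9.32 in knockout-labelled libraries and 1798, 161 and 60.1 in control libraries. Nfkb1 and Irf1 kept their calls under every alternative, and Rel, Nfkbia, Irf7 and Il1rn lost theirs when certain single libraries were left out: the number higher was 1 without knockout-labelled library 2 or control library 3, and the number lower was 2 without knockout-labelled library 3 or control library 1.

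Of 14 tested adhesion genes of marrow retention, 2 were higher and 5 were lower, beside 11.8% and 15.0% of all tested genes. Vcam1, a ligand of the integrin VLA-4, averaged 18330 ± 3009 normalized counts in knockout-labelled libraries and 3648 ± 113 in control libraries (SD, n = 3 each; log2 fold change 2.32 ± 0.13 SE, limma adjusted p = 1.55e-06), and the integrin chain Itgb2 averaged 3592 in knockout-labelled and 2255 in control libraries. The integrin chains Itgal and Itgam averaged 513 and 326 in knockout-labelled libraries and 874 and 661 in control libraries. Icam2, the hyaluronan receptor Cd44 and the selectin ligand Selplg averaged 1530, 2377 and 4214 in knockout-labelled libraries and 2807, 3661 and 6946 in control libraries.

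**Figure D5:**
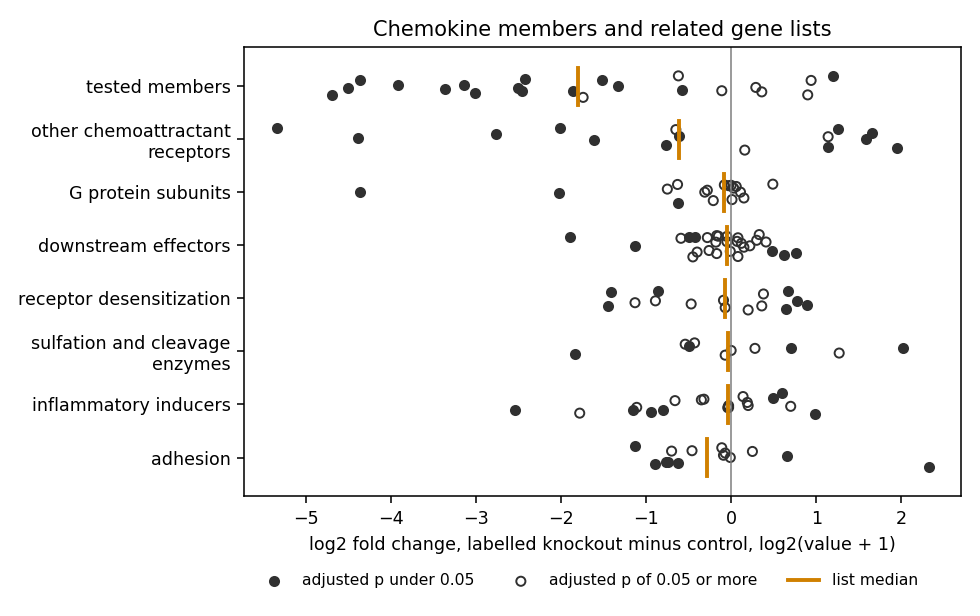
Log2 fold change (knockout-labelled minus control, log2(value + 1) scale) of each tested gene in the chemokine set and in 7 related lists, with filled points at an adjusted p under 0.05 and bars at the list medians. The chemokine set has its median at -1.80, the other chemoattractant receptors at -0.61 and the adhesion genes at -0.29, and the remaining 5 lists lie between -0.08 and -0.04.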

How the data were processed

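RNA sequencing of 6 sorted GMP libraries, 3 labelled Bap1 knockout and 3 control, was analysed from 1 deposited table. Libraries were Ion Torrent whole-transcriptome libraries after SMARTer amplification, per the labels' protocols, and PCR reads carried no molecular identifiers. Tools listed in the submitters' processing notes are STAR, BWA 0.7.5a, Picard, HTSeq and DESeq2, and the builds are mm9 and NCBIM37, with no role given. The deposited values, a signal per gene, were the authors' gene read counts over a size factor of each library: 100% of the values were whole multiples of the value of 1 read within 0.01 of a read, and that value ran from 0.8885 to 1.1419. Whole reads were recovered by division for an edgeR 4.0.16 and a DESeq2 1.42.0 test, used as alternatives. Genes took 22.9 to 25.2% of all reads, and 5 rows that name no gene were kept out: 38.39 to 40.9% lay outside genes, 26.76 to 28.79% had several alignments, 6.3 to 11.62% had none and 0.12 to 0.13% ambiguous. Replicates differed beyond counting noise (chi-square per gene 13.9 to 54.9).

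Symbols, longest transcript lengths, GC content and gene order came from GENCODE M21 (GRCm38), which named 32897 of 37620 gene IDs; it is on another build than the files, so no coordinate was joined to the counts. The main test was limma 3.58.1 in R 4.3.3, trend variance, on log2(value + 1), genes with a mean of at least 10, group as the only term, 2-sided, Benjamini-Hochberg over 14391 genes at 0.05. Fold changes on this scale understate changes of low genes. Scripts were tested on simulated data. The members and lists were chosen with earlier results of these data known. A few genes of the set and lists are not reported here. The other tested members are named, called members and those with a mean of at least 100 library by library, and of each related list up to 5 called genes in each direction with the lowest adjusted p; marker genes named singly were chosen after their values were seen. A set of 17 alternatives was run.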

Additional observations from a re-analysis of the deposited data

How the results depend on the processing

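Of 362 recomputed fold changes of the tested genes under 17 alternatives, 341 kept their direction and their side of the threshold, 15 fell short of it, 2 newly passed it and 4 reversed. The reversals were uncalled genes: the log2 fold change of Cxcr4 was 0.04 with a GC and length correction, 0.04 with that correction and the replicate block, and -0.24 to 0.06 when 1 library was left out (positive without knockout-labelled library 2), and that of Ccl3 was -0.09 to 0.66 when 1 library was left out (negative without control library 2). The cause was not tested. Ccr1 was called higher, and Ccr2, Cx3cr1, Ccrl2, Ccl9, Ccl6, Ccl5 and Xcl1 lower, under each alternative in which they were tested.

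Members called lower were 6 with a mean of at least 50 (receptors 3, ligands 3), where fewer genes were tested, and 10 to 13 when 1 library was left out (receptors 6 to 8, ligands 4 to 6). Members called higher were 1 to 2 and ligands called higher 0 to 1 when 1 library was left out. Over all genes, leaving out 1 library gave 1032 to 1791 higher and 1372 to 2324 lower, with the lowest counts without control library 2 or 3. Counts of related lists also moved when 1 library was left out: downstream effectors 0 to 4 lower, inflammatory inducers 1 to 2 higher and 2 to 4 lower, sulfation and cleavage enzymes 1 to 3 higher and 1 to 2 lower, other chemoattractant receptors 2 to 5 higher and desensitization genes 2 to 4 higher. Downstream effectors called lower were 2 without a filter beyond 1 read, 2 with the GC and length correction and 2 with that correction and the block. G protein subunits called higher were 1 with the correction and 1 with the correction and the block. Sulfation and cleavage enzymes called higher were 1 without the filter and 1 with a mean of at least 50.

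Replicate numbers did not pair the libraries: deviations from group means correlated at -0.104, 0.042 and -0.058 for numbers 1, 2 and 3. With the replicate block, 1 member was higher and 14 were lower, and sulfation and cleavage enzymes called lower were 1, as with the correction alone (1) and with both (1). Low genes rest on few reads, and values below about 3 reads per library are uncertain at this depth. The floor of 3 reads was a setting and not a measured limit of detection. Members without a read may still be expressed below that floor.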
